A study of Mus musculus with 52 samples.

Results

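Wdfy1, 4833420G17Rik, Dmkn, Vill, Gm20186 and 1700047I17Rik2 are 6 of the 15692 genes counted in the frontal cortex of APP/E4 and APP/E3 mice. They were picked by name because their levels differed strongly between these lines and because each lies on a chromosome of its own, so the difference between APP/E4 and APP/E3 is described here without a test. Every mouse of both lines carried the APP/PS1ΔE9 transgene, which drives amyloid plaque formation, and was homozygous for a targeted replacement of mouse Apoe by human APOE4 (APP/E4) or human APOE3 (APP/E3). No group lacked the transgene, so each level below is that of a brain with the amyloid transgene. The APP/E4 mice comprised 7 females and 5 males on a Western high-fat diet (HFD, 40% of calories from fat) and 7 females and 6 males on a normal diet (ND). The APP/E3 mice comprised 8 females and 6 males on HFD and 7 females and 6 males on ND. The diets began when the mice averaged 3.5 months and were fed for 3 months, and behavioural testing came at 14.7 months on average. The ages of single mice, and how these times relate to tissue collection, are not stated in the labels.

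The 6 genes belong to no common pathway. Wdfy1 encodes a protein of early endosomes that binds phosphatidylinositol 3-phosphate through a FYVE domain and has been described in mouse cells as an adaptor of Toll-like receptor signalling. Dmkn encodes dermokine, a protein secreted by differentiating keratinocytes of the skin, and Vill encodes villin-like protein, a relative of the actin-binding proteins gelsolin and villin. 4833420G17Rik and 1700047I17Rik2 are protein-coding genes known mainly by their clone names, the second being listed as Fam177a2 in RefSeq, and Gm20186 is a long intergenic non-coding RNA. By RefSeq, Wdfy1 lies on chromosome 1, 4833420G17Rik on chromosome 13, Dmkn on chromosome 7, Vill on chromosome 9 and 1700047I17Rik2 on chromosome 12. Gm20186 was matched by symbol to GENCODE M21, which places it on the minus strand of chromosome 6. The counts were made on the mm9 build, so these annotations of GRCm38 serve only for names, chromosomes and gene order.

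Sequence sets how far the counts of 2 of the genes can be trusted. The GENCODE transcript of 1700047I17Rik2 holds 3863 bases, and 100% of its 50-base windows also occur in transcripts of other genes, foremost its copy Fam177a on the same chromosome. The coding sequences of both copies are 621 bases long and have 0 differences. The first 180 coding bases, which stand for both genes, show why reads cannot be assigned to one of them by sequence.
1700047I17Rik2 and Fam177a: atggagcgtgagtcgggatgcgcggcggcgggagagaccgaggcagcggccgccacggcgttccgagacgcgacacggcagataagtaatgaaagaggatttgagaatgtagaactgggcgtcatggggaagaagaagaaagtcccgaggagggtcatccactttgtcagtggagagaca
In the longest of 3 transcripts of Gm20186, of 741 bases, 72.1% of the 50-base windows also occur in other transcripts, most of them in Gm26809, another non-coding RNA of chromosome 6. Bases 1 to 300 follow, with the 193 bases that lie in no shared window in capitals.
Gm20186: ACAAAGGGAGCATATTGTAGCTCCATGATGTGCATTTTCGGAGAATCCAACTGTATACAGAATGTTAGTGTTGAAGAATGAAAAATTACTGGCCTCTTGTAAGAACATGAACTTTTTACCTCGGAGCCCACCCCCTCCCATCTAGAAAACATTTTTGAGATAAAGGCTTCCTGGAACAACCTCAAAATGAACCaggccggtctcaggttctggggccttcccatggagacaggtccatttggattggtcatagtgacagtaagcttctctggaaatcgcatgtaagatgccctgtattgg
The corresponding share was 6.05% for 4833420G17Rik and 0.378% for Wdfy1, and it was 0 for Dmkn and Vill. No source used here gives the way in which reads matching several genes were counted. The counts of Gm20186 and 1700047I17Rik2 are therefore uncertain as to which copy they come from.

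Each library held 5.34 to 13.1 M counts, except 1 with 39.4 M, and all 6 genes passed the filter on low counts that left 15195 genes. Levels are given as CPM, counts per M counts of a library total scaled by the trimmed mean of M values (TMM). At these depths 3 counts, taken as the floor of detection, correspond to between 0.0754 and 0.579 CPM. The defining markers of cortical excitatory neurons summed to between 1230 and 2330 CPM in APP/E4 and between 1460 and 2500 CPM in APP/E3, and none of the 7 was called between the lines. In 11 female libraries (4 APP/E4, 7 APP/E3) the citrate synthase relative Csl had only 0.0936 to 1.15 CPM, against 10.7 to 18.2 CPM in the 41 other libraries. These libraries are called low-Csl here, and values without them are given where they change a result. In 14 libraries, all of them male, the sample title lacks a sex letter, which is used below as a second grouping. The labels do not say what either grouping reflects, and each is tied to 1 sex. Apoe averaged 18.9 CPM in APP/E4 and 19.3 CPM in APP/E3, but a table of mouse genes does not separate the human alleles, so these values do not check the genotype labels.

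**Figure D1:**
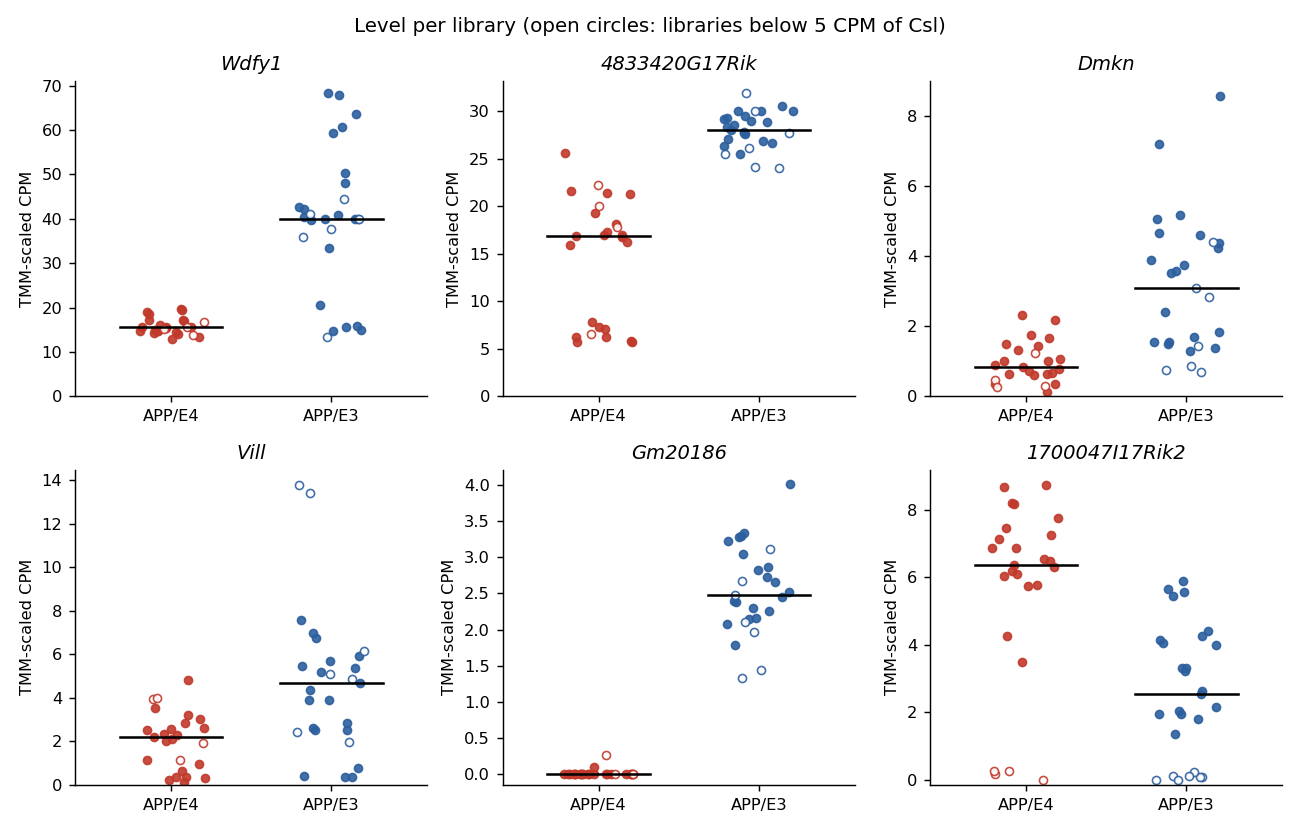
TMM-scaled CPM of the 6 genes in 25 APP/E4 and 27 APP/E3 libraries, 1 point per library, with the median as a line and low-Csl libraries as open circles. Gm20186 separated the lines completely, Wdfy1 spread between 13.3 and 68.3 CPM in APP/E3 only, 4833420G17Rik fell into separate bands in APP/E4 only, and the open circles of 1700047I17Rik2 lay at or under 0.264 CPM.

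Wdfy1 was low in every APP/E4 library and spread widely in APP/E3. It lay at 13.0, 15.5 and 19.6 CPM (lowest, median and highest of 25) in APP/E4 and at 13.3, 40.0 and 68.3 CPM (of 27) in APP/E3. The APP/E4 libraries thus formed a narrow band, and 22 of the 27 APP/E3 libraries lay above its upper end while 5 lay within it. The means were 15.8 ± 1.86 CPM (SD, n = 25) in APP/E4 and 39.7 ± 16.1 CPM (SD, n = 27) in APP/E3, a log2 difference of -1.26 ± 0.13 (SE).

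The APP/E3 libraries of Wdfy1 were split by an empty interval between 20.6 and 33.5 CPM, a gap of 0.69 on the log2 scale, with 6 libraries below it and 21 above. A gap of at least 0.5 in log2 CPM with at least 2 libraries on each side is called a step here. The 6 libraries below the step were 4 of 6 ND males, 1 of 6 HFD males, 1 of 7 ND females and 0 of 8 HFD females. Above it, 16 libraries lay between 33.5 and 50.4 CPM and 5 between 59.3 and 68.3 CPM, without a further step. The second widest gap in APP/E3, 0.37, lay below the step, between 15.9 and 20.6 CPM. In APP/E4 the widest gap was 0.12, so no step was seen. By group, the medians were 14.8 CPM in HFD females, 17.1 CPM in HFD males, 15.4 CPM in ND females and 15.4 CPM in ND males of APP/E4. In APP/E3 they were 40.5 CPM in HFD females, 45.1 CPM in HFD males, 40.0 CPM in ND females and 18.3 CPM in ND males. The difference between the lines was thus smallest in ND males, at -0.68 ± 0.27 on the log2 scale (SE), and lay between -1.55 and -1.32 in the other 3 groups. Of all genes tested, 4.74% had a step in APP/E3 and 4.34% in APP/E4, and of the genes averaging at least 50 counts 2.23% had one in APP/E3 and 1.73% in APP/E4. Of the 6 libraries below the Wdfy1 step, 3 had titles without a sex letter and 1 was low-Csl. Such titles occurred in 8 of 27 APP/E3 libraries, all of them among the 12 APP/E3 males. The part of these groupings in the step was not tested.

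4833420G17Rik showed the reverse arrangement, with a narrow band in APP/E3 and a step in APP/E4. Its level was 5.7, 16.9 and 25.6 CPM (lowest, median and highest) in APP/E4 and 24.0, 28.1 and 31.9 CPM in APP/E3. All but 1 of the 25 APP/E4 libraries lay below the lowest APP/E3 library. The means were 14.5 ± 6.52 CPM (SD, n = 25) in APP/E4 and 28.0 ± 1.95 CPM (SD, n = 27) in APP/E3, a log2 difference of -0.95 ± 0.13 (SE).

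In APP/E4, 9 libraries of 4833420G17Rik lay between 5.7 and 7.81 CPM and 16 between 15.9 and 25.6 CPM, with a gap of 1.01 on the log2 scale and no library in between. The upper end of the gap was 2.04 times its lower end. The 9 low libraries were 5 of 7 HFD females, 1 of 5 HFD males, 2 of 7 ND females and 1 of 6 ND males, so each group of APP/E4 held both kinds. Of these 9, 1 was low-Csl and 1 had a title without a sex letter. The widest gap in APP/E3 was 0.08. By group, the medians in APP/E4 were 7.26 CPM in HFD females and between 16.2 and 17.6 CPM in the other 3 groups, while those in APP/E3 ran only from 27.9 to 28.4 CPM. The log2 difference between the lines was -1.49 ± 0.25 (SE) in HFD females and between -0.78 and -0.77 in the other 3 groups.

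**Figure D2:**
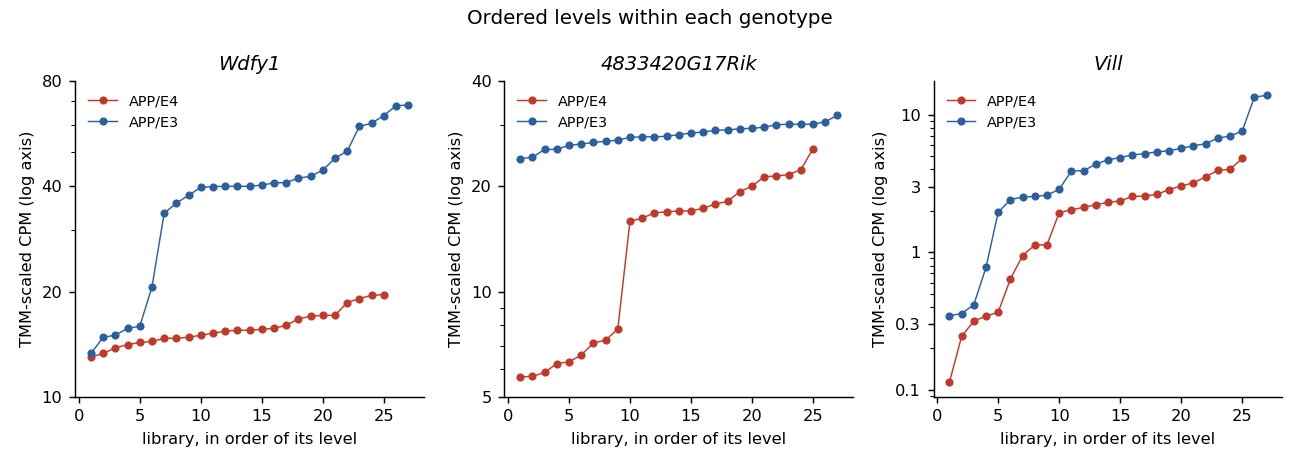
Libraries of each line placed in order of their level, with TMM-scaled CPM on a log axis, for Wdfy1, 4833420G17Rik and Vill. The jumps mark the steps of 0.69 in APP/E3 for Wdfy1, 1.01 in APP/E4 for 4833420G17Rik, and 0.68 in APP/E4 and 1.14 in APP/E3 for Vill, all in log2 CPM with a prior count of 2.

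Vill stepped in both lines. Its level was 0.113, 2.21 and 4.8 CPM (lowest, median and highest) in APP/E4 and 0.345, 4.7 and 13.8 CPM in APP/E3, with 13 APP/E3 libraries above the highest APP/E4 library and 4 APP/E4 libraries below the lowest APP/E3 library. The means were 2.05 ± 1.32 CPM (SD, n = 25) in APP/E4 and 4.66 ± 3.31 CPM (SD, n = 27) in APP/E3, a log2 difference of -1.14 ± 0.31 (SE), or -0.91 ± 0.35 without the low-Csl libraries. In APP/E4 the widest gap, 0.68, ran from 1.13 to 1.94 CPM with 9 libraries below and 16 above. In APP/E3 it was 1.14 and ran from 0.775 to 1.95 CPM with 4 libraries below and 23 above. The 4 were HFD male 6, ND female 5, ND female 1 and ND male 1. Libraries below the gap had only 1 to 12 counts in APP/E4 and 3 to 10 counts in APP/E3. The second widest gaps were 0.56 in APP/E4 and 0.8 in APP/E3, so these steps do not mark clearly discrete levels. At the top of APP/E3, HFD females 7 and 8, both low-Csl, had 13.8 and 13.4 CPM, and the next library had 7.6 CPM.

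Dmkn differed by level rather than by step. It lay at 0.128, 0.824 and 2.32 CPM (lowest, median and highest) in APP/E4 and at 0.682, 3.1 and 8.58 CPM in APP/E3. Of the APP/E3 libraries 16 lay above the highest APP/E4 library, and 10 APP/E4 libraries lay below the lowest APP/E3 library. Means were 0.961 ± 0.59 CPM (SD, n = 25) in APP/E4 and 3.18 ± 1.99 CPM (SD, n = 27) in APP/E3, a log2 difference of -1.79 ± 0.27 (SE). In 5 APP/E4 libraries the gene had 3 counts or fewer. The log2 difference between the lines was -1.87 ± 0.51 in HFD females, -2.18 ± 0.58 in HFD males, -1.47 ± 0.49 in ND females and -1.62 ± 0.53 in ND males (SE). The widest gaps with at least 2 libraries on each side were 0.3 in APP/E4 and 0.46 in APP/E3, so neither line showed a step, and a single APP/E4 library lay 0.47 below the next.

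Gm20186 separated the lines without overlap. In APP/E4 it had 0 counts in 23 of 25 libraries, 3 counts in ND female 7 and 1 count in ND male 4. In APP/E3 it had 13 to 106 counts in every library, or 1.33, 2.48 and 4.01 CPM (lowest, median and highest), with a mean of 2.55 ± 0.611 CPM (SD, n = 27). Pooled, these are 4 counts in 231 M for APP/E4 and 721 counts in 281 M for APP/E3, an APP/E4 to APP/E3 ratio of 0.00677 with an exact 95% binomial (Clopper-Pearson) interval of 0.00184 to 0.0174. The interval covers counting error only and not the spread between mice. It is no test of the lines, since the gene was chosen on this difference. The fitted log2 difference was -6.8 and depends on the prior count, since nearly all APP/E4 libraries are at 0. Its SE, derived from the F statistic, was 0.26 by edgeR, and DESeq2 gave -6.55 with an SE of 0.42. With 4 counts in APP/E4 the edgeR SE understates the counting error shown by the interval above. Of all genes tested, 8 (0.0526%) had ranges that did not overlap between the lines, and in 3 of them (0.0197%) APP/E4 was the lower line. The gap of 0.55 in APP/E4, formally a step, rests on these 4 counts.

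1700047I17Rik2 was the only one of the 6 with a higher level in APP/E4, and it followed the low-Csl grouping. Over all libraries it lay at 0, 6.37 and 8.74 CPM (lowest, median and highest) in APP/E4 and at 0, 2.55 and 5.87 CPM in APP/E3. Every low-Csl library of either line had 0.264 CPM or less, which is 0 to 3 counts. Without these 11 libraries the level was 3.48, 6.55 and 8.74 CPM in APP/E4 and 1.36, 3.31 and 5.87 CPM in APP/E3. The means were then 6.68 ± 1.31 CPM (SD, n = 21) in APP/E4 and 3.48 ± 1.42 CPM (SD, n = 20) in APP/E3, and 17 of 21 APP/E4 libraries lay above the highest APP/E3 library. The log2 difference was 1.17 ± 0.36 (SE) over all libraries and 0.91 ± 0.14 without the low-Csl libraries. The steps of 2.98 in APP/E4 (4 libraries below) and 1.81 in APP/E3 (7 libraries below) separate exactly the low-Csl libraries from the others.

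The copy Fam177a lay at 0.341 to 0.47 CPM in the APP/E4 low-Csl libraries and at 0 to 0.428 CPM in the APP/E3 low-Csl libraries. In the other libraries it averaged 3.85 ± 0.993 CPM (SD, n = 21) in APP/E4 and 2.22 ± 0.745 CPM (SD, n = 20) in APP/E3. Within the libraries that were not low-Csl the copies correlated at r = 0.62 in APP/E4 and r = 0.61 in APP/E3. Because their coding sequences are identical, the split of reads between the copies is uncertain, and these values cannot show that either copy changed alone.

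**Figure D3:**
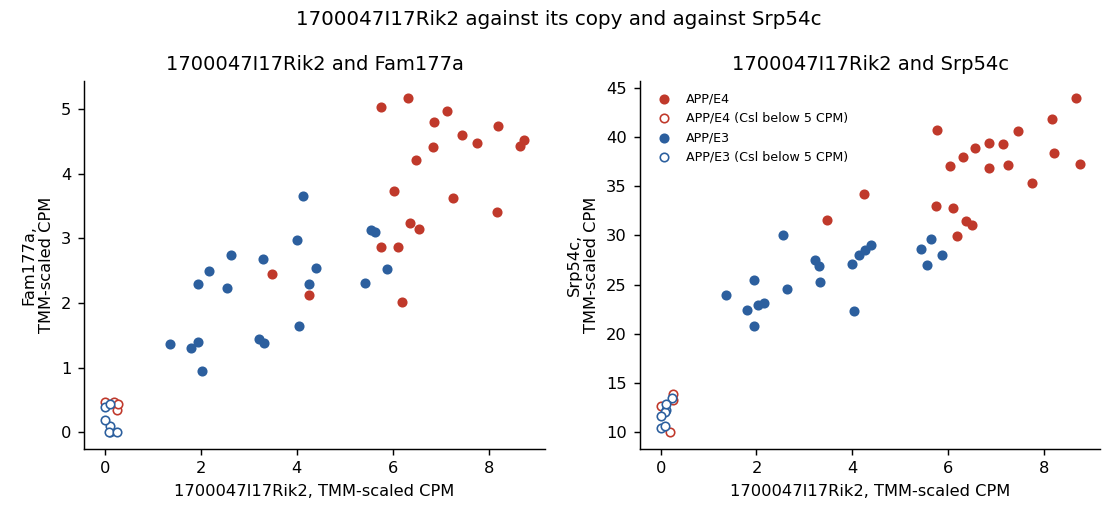
Levels of Fam177a (left) and Srp54c (right) against 1700047I17Rik2, 1 point per library in TMM-scaled CPM, with low-Csl libraries as open circles. The open circles of both lines form a cluster near 0 for 1700047I17Rik2 and Fam177a, and the remaining APP/E4 libraries lie mostly above and to the right of the remaining APP/E3 libraries.

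Counted over the 6 genes, a step was seen for 4 in APP/E4 (background 4.34%) and for 3 in APP/E3 (background 4.74%). Wdfy1 and 4833420G17Rik average at least 50 counts and the other 4 genes fewer, and of all genes averaging under 50 counts 13.1% had a step in APP/E4 and 13.2% in APP/E3. Dmkn and, in APP/E3, Gm20186 varied without one. An absolute log2 difference between the lines above 1 was reached by 5 of the 6 genes, against 0.329% of all genes tested, as follows from the way they were chosen. In bulk tissue, fewer cells that express a gene and less of its RNA per cell cannot be told apart.

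Whether diet or sex moved these genes is a question on which they were not chosen, and it was tested with edgeR's quasi-likelihood method over all 15195 genes. The p-values measure the spread between these libraries, and the labels give no further detail on how separate the samples are. None of the 6 was called between females and males (edgeR, adjusted p under 0.05, background 4.42%), and none reached an unadjusted p under 0.05. For Gm20186 edgeR gave no usable SE here, and all 12 of its APP/E4 HFD libraries had 0 counts. Its missing edgeR call between the sexes is therefore uninformative. DESeq2 called none, and limma voom called 1, 1700047I17Rik2, with a log2 difference of -1.95 ± 0.51 between females and males (SE, adjusted p = 0.0157). That call touches the low-Csl libraries, all of them female: edgeR gave 1700047I17Rik2 a log2 difference of -0.53 ± 0.36 between females and males over all libraries (adjusted p = 0.44) and of 0.22 ± 0.14 without the low-Csl libraries (adjusted p = 0.383).

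None of the 6 was called between HFD and ND by edgeR or limma voom, and none had an unadjusted p under 0.05 by edgeR, DESeq2 or limma voom. DESeq2 gave an adjusted p in this comparison for Wdfy1 only (0.509), so it could not call the other members. The background was 0 in this comparison: edgeR called no gene of the genome-wide table, while 1398 genes had an unadjusted p under 0.05. Apart from Gm20186, whose APP/E4 libraries are almost all at 0, Vill had the largest averaged log2 difference between HFD and ND of the 6 genes, 0.42 ± 0.31 (SE, edgeR adjusted p = 0.706). For Wdfy1 the value was 0.21 ± 0.13 (adjusted p = 0.636), and for 4833420G17Rik it was -0.16 ± 0.13 (adjusted p = 0.738).

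The interaction of diet with genotype called none of the 6 (edgeR, background 0), with 1 at an unadjusted p under 0.05. This was Gm20186, whose value rests on the 4 counts in APP/E4. DESeq2 and limma voom called none. The interaction of sex with genotype called none of the 6 either (edgeR, background 0.00658%), with 1 at an unadjusted p under 0.05 by edgeR. This was Wdfy1, with -0.52 ± 0.26 on the log2 scale (SE, unadjusted p = 0.0457, adjusted p = 0.948). For Gm20186 edgeR gave no usable SE in this interaction, so its missing edgeR call is uninformative. DESeq2 and limma voom called none here as well, with 1 and 0 of the 6 at an unadjusted p under 0.05.

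Within single strata 36 edgeR tests of the 6 genes gave 0 calls and 4 unadjusted p under 0.05. They include Gm20186 between females and males of APP/E4, where edgeR gave no usable SE. The background was 0.27% between females and males in APP/E4, 1.92% between them in APP/E3, 0.0263% between HFD and ND in APP/E3 females, and 0 between the diets in the other 3 strata. Wdfy1 averaged 44.0 ± 17.4 CPM in HFD males (SD, n = 6) and 24.9 ± 12.8 CPM in ND males (SD, n = 6) of APP/E3, a log2 difference of 0.79 ± 0.25 (SE, edgeR adjusted p = 0.279). In APP/E3 females it was 0.39 ± 0.17 higher than in APP/E3 males on the log2 scale (SE, edgeR adjusted p = 0.214). 4833420G17Rik averaged 9.96 ± 5.22 CPM in HFD females (SD, n = 7) and 15.9 ± 7.74 CPM in ND females (SD, n = 7) of APP/E4, a log2 difference of -0.68 ± 0.26 (SE, edgeR adjusted p = 0.599). Between APP/E4 females and males its difference was -0.38 ± 0.19 (SE, edgeR adjusted p = 0.572). None of these passed the adjustment over all genes.

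Co-variation among the 6 genes within a line was weak. Of 30 relations (15 pairs in each line), 18 involved libraries in separate clusters and were not tested, and of the 12 tested none was called by Pearson's r or Spearman's rho, with 1 at an unadjusted p under 0.05. The 12 include Gm20186 in APP/E4 with Wdfy1, Dmkn and Vill. There 23 of 25 libraries had 0 counts of Gm20186, so co-variation could not be seen. Its rho with Wdfy1 was 0.31, and -0.19 with DESeq2 size factors, and is not interpreted. The smallest adjusted p for r was 0.454, for Wdfy1 and Vill in APP/E4 (r = 0.42, rho = 0.42, permutation p = 0.0379 and 0.0391, adjusted p for rho = 0.333, r = 0.42 without the 2 libraries farthest from the median of Wdfy1). In APP/E3 the same pair had r = -0.08 as a description, since Vill falls into clusters there. The low sides of the steps shared some libraries. In APP/E3, 1 library, ND male 1, lay below the steps of both Wdfy1 (6 libraries) and Vill (4 libraries). In APP/E4, 5 libraries lay below the steps of both 4833420G17Rik and Vill, out of 9 for each gene. The low side of Gm20186 in APP/E4 holds 23 of 25 libraries, so nearly every library below another step is also on it: 9 of 9 for 4833420G17Rik, 9 of 9 for Vill and 3 of 4 for 1700047I17Rik2. These counts are descriptions, and no test was made on them.

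Only 3 of the 6 genes stood alone among their neighbours. Among the 3 nearest tested genes on either side, edgeR called 0 of 6 between APP/E4 and APP/E3 around each of Wdfy1, Vill and Gm20186, 3 of 5 around 4833420G17Rik, 4 of 6 around Dmkn and 5 of 6 around 1700047I17Rik2. In all, 12 of 35 neighbours were called, with a background of 6.79%. Genes of 1 chromosome share the animals and, for close copies, reads, so neighbours are not independent of each other.

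Around 4833420G17Rik the called neighbours went both ways. Nnt, which encodes the mitochondrial transhydrogenase that supplies NADPH, had 27.8 ± 4.85 CPM in APP/E4 (SD, n = 25) and 22.7 ± 1.66 CPM in APP/E3 (SD, n = 27), a log2 difference of 0.29 ± 0.05 (SE, edgeR adjusted p = 0.000133). The growth factor gene Fgf10 was 0.26 ± 0.08 higher (SE, edgeR adjusted p = 0.0429), and 3110070M22Rik was lower, with a log2 difference of -0.87 ± 0.22 (SE, edgeR adjusted p = 0.00854). The level of 3110070M22Rik was near the floor of detection, at 0.438 CPM in APP/E4 and 0.819 CPM in APP/E3. Paip1, a partner gene of poly(A)-binding protein that lies between Nnt and 4833420G17Rik, averaged 76.6 CPM in APP/E4 and 76.3 CPM in APP/E3 and was not called (edgeR adjusted p = 0.965).

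By a rule applied to all genes, the 3 genes most like each member were taken by the absolute Pearson correlation of log2 CPM over 52 libraries after the mean of each of the 8 groups was removed. They were selected for their r, so no p is given. For 4833420G17Rik these were Nnt (r = -0.69), Gm9752 (r = 0.68) and Taz (r = 0.61), the gene of the cardiolipin transacylase tafazzin on chromosome X. In APP/E4 alone the correlation with Nnt was r = -0.74 (rho = -0.73, n = 25), or -0.72 without the low-Csl libraries. In APP/E3, where 4833420G17Rik hardly varied, it was r = -0.1 (rho = -0.23, n = 27), and -0.49 without the low-Csl libraries. GENCODE places Gm9752, a non-coding transcript, inside 4833420G17Rik on the opposite strand. Without knowing whether strand was used in counting, reads of the pair cannot be told apart.

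**Figure D4:**
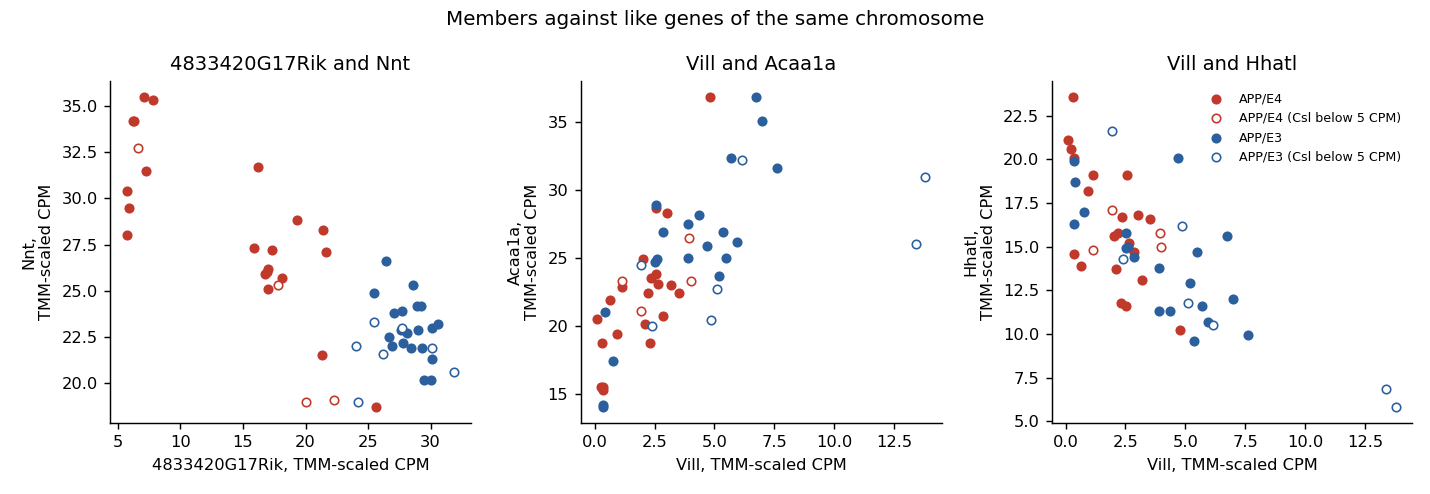
Levels of Nnt against 4833420G17Rik, and of Acaa1a and Hhatl against Vill, 1 point per library in TMM-scaled CPM, with low-Csl libraries as open circles. Nnt was lower where 4833420G17Rik was higher in APP/E4 (r = -0.74), and Vill ran with Acaa1a and against Hhatl in both lines.

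For Vill the 3 most like genes all lay on its own chromosome 9 although none of its 6 nearest neighbours was called. They were Acaa1a (r = 0.75), a peroxisomal thiolase of fatty acid oxidation that lies 6 tested genes away, Hhatl (r = -0.71, 36 genes away), a relative of hedgehog acyltransferase, and the kinase gene Ulk4 (r = 0.69, 25 genes away). Without the low-Csl libraries the same 3 genes led, with r = 0.81, -0.73 and 0.78. Within APP/E4 the correlations of Vill were r = 0.71 with Acaa1a, -0.61 with Hhatl and 0.76 with Ulk4, and within APP/E3 they were 0.79, -0.72 and 0.69. Acaa1a averaged 22.4 ± 4.61 CPM in APP/E4 (SD, n = 25) and 25.7 ± 5.63 CPM in APP/E3 (SD, n = 27). Acaa1b, a close paralog of Acaa1a and the third neighbour of Vill, ran against Vill with r = -0.48 in APP/E4 and r = -0.72 in APP/E3, and the thiolase paralogs may share reads. In APP/E3, Vill also had r = -0.74 with the summed markers of blood, against r = 0.18 in APP/E4. Its rho with blood in APP/E3 was -0.43, and r was -0.61 without the 2 libraries farthest from the median of Vill.

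Dmkn varied with markers of the striatum, which lies beneath the frontal cortex. Summed markers of the striatum (Drd1, Drd2, Adora2a, Ppp1r1b, Rgs9, Tac1) lay between 98.0 and 1270 CPM in APP/E4 (median 624) and between 103 and 1520 CPM in APP/E3 (median 603), and 0 of the 6 were called between the lines. Their log2 sum correlated with Dmkn at r = 0.7 and rho = 0.74 in APP/E4 (permutation p = 8e-05, adjusted p = 0.0024 for r) and at r = 0.92 and rho = 0.92 in APP/E3. There the permutation p of 1e-05 was the smallest that 100000 resamples can give, with an adjusted p of 0.0006. Without the 2 libraries farthest from the median of Dmkn, r was 0.67 in APP/E4 and 0.91 in APP/E3, and without the low-Csl libraries 0.58 and 0.88. These were 2 of 96 relations of the 6 genes with 8 marker lists, of which 60 were tested and only these 2 were called by both measures. Relations of Gm20186 in APP/E4, with 23 of 25 libraries at 0, are among the 60 and could not show co-variation. Dmkn ran against the summed markers of cortical excitatory neurons, with r = -0.47 and rho = -0.49 in APP/E4 (permutation, adjusted p = 0.153 and 0.143) and r = -0.58 and rho = -0.54 in APP/E3 (permutation, adjusted p = 0.0314 and 0.0703), or r = -0.43 and -0.73 without the low-Csl libraries. The 3 genes most like Dmkn were Lrrc10b (r = 0.85), Tbc1d8 (r = 0.85) and Adcy5 (r = 0.84), the adenylyl cyclase gene abundant in the striatum. The part of these markers in the difference of Dmkn between the lines was not tested.

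**Figure D5:**
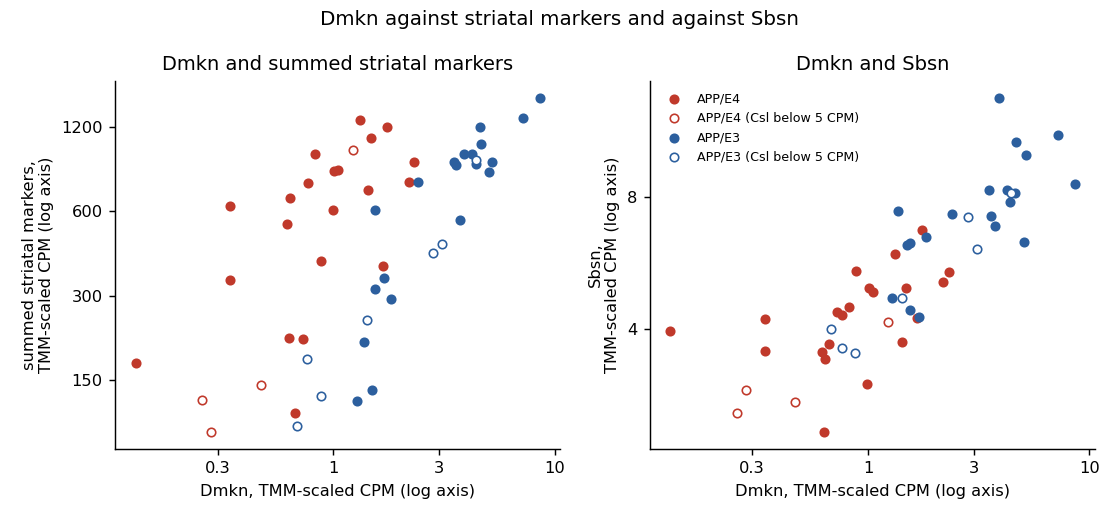
Summed striatal markers (left) and Sbsn (right) against Dmkn, in TMM-scaled CPM on log axes, 1 point per library, with low-Csl libraries as open circles. Dmkn was higher where both were higher in each line (r between 0.62 and 0.92), with Dmkn at 0.128 to 2.32 CPM in APP/E4 and at 0.682 to 8.58 CPM in APP/E3.

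The neighbours of Dmkn included its partner in skin. Sbsn, which encodes suprabasin of the epidermis and lies next to Dmkn, averaged 4.18 ± 1.09 CPM in APP/E4 (SD, n = 25) and 7.08 ± 2.41 CPM in APP/E3 (SD, n = 27), a log2 difference of -0.77 ± 0.13 (SE, edgeR adjusted p = 3.3e-05). It correlated with Dmkn at r = 0.62 and rho = 0.71 in APP/E4 (permutation, adjusted p = 0.0186 for r) and at r = 0.82 and rho = 0.81 in APP/E3 (permutation, adjusted p = 0.00047 for r), or r = 0.67 and 0.77 without the 2 libraries farthest from the median. Among 70 relations of the 6 genes with their neighbours, 47 were tested and these 2 were called by both measures. Those of Gm20186 in APP/E4, nearly always at 0 there, are among the 47 and could not show co-variation. Dmkn with its neighbour Mag in APP/E3 passed for rho (0.66, permutation, adjusted p = 0.0047) but not for r (0.52, adjusted p = 0.0797). On the other side, the lectin gene Cd22 was higher by 0.79 ± 0.16 (SE, edgeR adjusted p = 0.00101) and Mag, the myelin-associated glycoprotein gene, by 0.38 ± 0.11 (SE, edgeR adjusted p = 0.0361). Gapdhs, which encodes a glycolytic enzyme of sperm, was higher by 0.72 ± 0.12 (SE, edgeR adjusted p = 7.72e-05). Dmkn lies on chromosome 7 as Apoe does, 181 tested genes from it.

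Around 1700047I17Rik2 the 5 called neighbours were all higher in APP/E4. They were Srp54a (0.29 ± 0.09), Srp54b (0.72 ± 0.21), Srp54c (0.55 ± 0.13), Gm2446 (1.14 ± 0.29) and Fam177a (1.02 ± 0.3), as log2 differences with SE and edgeR adjusted p between 0.00649 and 0.0485. Levels near the floor of detection were seen for Srp54b (0.76 CPM in APP/E4, 0.462 CPM in APP/E3) and Gm2446 (0.855 and 0.373 CPM). The Srp54 genes encode copies of a subunit of the signal recognition particle, which brings nascent secretory proteins to the endoplasmic reticulum, and their reads may be shared. Srp54c averaged 32.8 ± 9.73 CPM in APP/E4 (SD, n = 25) and 22.4 ± 6.77 CPM in APP/E3 (SD, n = 27), and it correlated with 1700047I17Rik2 at r = 0.97 in each line. Without the low-Csl libraries the correlation was r = 0.55 in APP/E4 and r = 0.68 in APP/E3. Over all libraries the most like genes were Srp54c and the pseudogenes Gm6682 and Gm6548, each at r = 0.96, and without the low-Csl libraries only Srp54c (r = 0.64) was still among the leading 3.

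Wdfy1 and Gm20186 had no close partner. The genes most like Wdfy1 were the channel gene Trpc2 (r = 0.51) and the chromatin remodeller gene Chd1 (r = 0.51), each on another chromosome. Without the low-Csl libraries neither was among the leading 3. Ccdc93 then led with r = 0.57, and it lies on chromosome 1 as Wdfy1 does, 141 tested genes away. The variation of Gm20186 within groups includes the 2 APP/E4 libraries with counts, 1 of them low-Csl. Its leading genes were Kif13a (r = 0.59), Slc4a5 (r = 0.57) and Zmpste24 (r = 0.57), and none of them led without the low-Csl libraries. Slc4a5 lies on chromosome 6 as Gm20186 does, 275 tested genes away.

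Relatives of the 6 genes were examined as lists. Of 25 genes with FYVE domains other than Wdfy1, 0 were called between APP/E4 and APP/E3 (edgeR, background 6.79%), with 13 higher, 12 lower and a median log2 difference of 0.01. The median absolute difference was 0.0315, against 0.0667 over all genes. The 2 with the smallest p were Zfyve16, the gene of endofin (0.12 ± 0.05, edgeR adjusted p = 0.143), and Hgs, which sorts ubiquitinated cargo on endosomes (-0.07 ± 0.03, edgeR adjusted p = 0.204). The nearest relative by name, Wdfy2, had 8.04 ± 1.17 CPM in APP/E4 and 8.12 ± 1.66 CPM in APP/E3, and Wdfy3, a large adaptor of selective autophagy, had 263 ± 34.9 CPM in APP/E4 and 254 ± 33.9 CPM in APP/E3 (SD, n = 25 and 27). Between the sexes 1 of 25 FYVE genes was called, against 4.42% of all genes, namely Zfyve28, with a log2 difference of -0.16 ± 0.04 between females and males (SE, edgeR adjusted p = 0.0145).

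Of 26 genes of Toll-like receptor 3 and 4 signalling, 2 were called higher in APP/E4 (background 3.39%) and 0 lower. These were Map3k7, the kinase TAK1 (0.11 ± 0.03, edgeR adjusted p = 0.00528), and Nfkb1, an NF-kappaB subunit (0.15 ± 0.04, edgeR adjusted p = 0.015). Between females and males 1 of the 26 was called, against 4.42% of all genes, namely Irf7, an interferon regulatory factor, higher in females by 0.61 ± 0.17 (SE, edgeR adjusted p = 0.0249).

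Of the gelsolin and villin family 5 of 7 genes were tested and 0 were called between the lines, with Capg (0.23 ± 0.1, edgeR adjusted p = 0.149) and Gsn (0.07 ± 0.07, edgeR adjusted p = 0.604) having the smallest p. Capg, an actin-capping protein gene of macrophages, was the 1 of 5 called between females and males, against 4.42% of all genes, and was higher in females by 0.45 ± 0.1 (SE, edgeR adjusted p = 0.0027). With a term for title style in the fit, edgeR called 18 genes of the whole table between the sexes in place of 671. All titles without a sex letter are of males, so this drop cannot tell the title grouping from sex. The part of the title grouping in these calls was not tested. Of the 9 epidermal genes 4 were tested, and 1 was called between APP/E4 and APP/E3 (edgeR, background 6.79%). This was Sbsn, lower in APP/E4, the neighbour of Dmkn described above. Between females and males 0 of the 4 were called. The keratinocyte markers in the table, 3 of 5, summed to a median of 14.1 CPM in APP/E4 and 13.7 CPM in APP/E3, while Krt5 and Krt14 had no row in the table.

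Other genes with large differences between the lines share chromosomes with some of the 6. Dmkn shares chromosome 7 with Cyp2f2, Rpl28, Eps8l1 and Tmc4, which lie between 125 and 332 tested genes away, and Gm20186 lies 40 tested genes from Pon2 on chromosome 6. 1700047I17Rik2 lies 266 tested genes from Serpina3n and 365 from Ighg2c on chromosome 12. Of 108 correlations of the 6 genes with 9 such genes within a line, 6 reached 0.5 in size, and they are descriptions over 25 or 27 libraries. In APP/E4, 4833420G17Rik had r = -0.52 with Serpina3n, a protease inhibitor gene of reactive astrocytes, and Vill had r = 0.51 with Fam205c. Dmkn had r = 0.54 with Sox2ot, a non-coding RNA, in APP/E3. Without the low-Csl libraries these were -0.5, 0.55 and 0.62. The other 3, all in APP/E4, were near 0 without the low-Csl libraries. Gm20186 had r = -0.55 with Eps8l1 and -0.54 with Tmc4, or -0.05 and -0.08 without them. These values of Gm20186 rest on 4 counts, since 23 of 25 APP/E4 libraries were at 0, and they describe no co-variation. 1700047I17Rik2 had r = 0.5 with Rpl28, or 0.07 without the low-Csl libraries.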

How the data were processed

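The authors deposited raw read counts per gene for 52 libraries, and the same file holds a log2 coefficient and p-values of the authors' own diet comparison, which were not used. Per the submitters' processing notes Subread, featureCounts, limma and edgeR 3.14.0 were used on build mm9. No source used here gives settings, annotation or strand use. Counts were filtered with filterByExpr (15195 of 15692 genes kept), scaled by TMM and fitted with edgeR 4.0.16 (robust quasi-likelihood, 8 group means) in R 4.3.3. P-values were adjusted by Benjamini-Hochberg over all genes tested, with an adjusted p under 0.05 as the threshold for a call. Log2 CPM carry a prior count of 2. The SE of an edgeR log2 difference is its absolute value divided by the square root of the F statistic. Correlations used 100000 two-sided permutations within a line, adjusted over each family, with no p where a gap of at least 1 in log2 CPM left 3 or more libraries on each side. Alternatives were DESeq2 1.42.0, limma 3.58.1 voom, other scalings, no filter, terms for the low-Csl and title groupings, and leaving out each library. The fits were tested on simulated data. The 6 genes, the lists and the tests were chosen with earlier results of these data known, and the correlations with markers and neighbours were added after the data were seen. Named genes are the 6, the 3 most like each (for Wdfy1 the leading 2), the 3 neighbours on each side, 9 companions and the fixed lists, of which the called genes or, if none, the 2 with the smallest p are named, and Wdfy2 and Wdfy3 were added after their values were seen. One gene most like Wdfy1 is not reported here, and the striatal sum was computed without one planned marker, likewise not reported. Replicate numbers follow the deposit order. No pair of libraries of a group was a duplicate (lowest chi-square per gene 2.88 over 146 pairs). Precision is that of 5.34 to 39.4 M counts per library.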

Additional observations from a re-analysis of the deposited data

Results flagged for a closer look

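Within a group of 5 to 8 libraries, a library was singled out where its gap to the nearest other, divided by the range of the group, exceeded Dixon's 95% value. This was met in 5 of 46 combinations of gene and group. Chance alone flags about 1 in 20 groups, and 2 of the 5 are groups in which a single library has any count, where the limit is met by construction, so the number of such libraries is not informative. Wdfy1 had 59.3 CPM in APP/E3 HFD female 5, and the nearest library of its group had 44.5 CPM. 4833420G17Rik had 6.29 CPM in APP/E4 ND male 2, the single low library of that group, against 16.8 CPM in the nearest. Dmkn had 8.58 CPM in APP/E3 ND female 1, against 3.75 CPM in the nearest, and that library also had the highest sum of striatal markers in APP/E3, 1520 CPM. Gm20186 had 0.264 CPM (3 counts) in APP/E4 ND female 7 and 0.0941 CPM (1 count) in APP/E4 ND male 4, where all other libraries of these groups were at 0.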

How the results depend on the processing

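Of the 7 counts that answer a comparison, 6 stayed within 1.5 times of their value under every alternative run. The counts for diet, for both interactions and for pairs of members were 0, so for them this means only that they stayed at 0. Tests that could not call Gm20186 are among them. The exception was the number of the 6 genes called between females and males, 0 by edgeR and 1 by limma voom (1700047I17Rik2, log2 difference -1.95). Leaving out each of the 52 libraries in turn gave 0 such calls in all 4 tested comparisons, and no log2 difference between APP/E4 and APP/E3 changed sign under any alternative. Those ranges ran from -1.36 to -1.15 for Wdfy1, -1.08 to -0.9 for 4833420G17Rik, -1.88 to -1.67 for Dmkn, -1.24 to -0.91 for Vill, -7.4 to -5.37 for Gm20186 and 0.9 to 1.31 for 1700047I17Rik2. The number of steps was 7, and 6 to 8 under other prior counts and scalings. With a term for title style edgeR called 18 genes between females and males in place of 671. Titles without a sex letter are all of males, so this fit cannot separate that grouping from sex. No paired analysis was possible because the replicate numbers follow the deposit order and pair no animals. Depth limits the genes with libraries at 3 counts or fewer, which were 25 for Gm20186, 11 for 1700047I17Rik2 (all of them low-Csl), 7 for Vill and 5 for Dmkn.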
